A study of Mus musculus with 11 samples.

Results

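The genes described are the nuclear-encoded subunits of respiratory chain complexes III and IV and of ATP synthase, with cytochrome c. Their mRNA was counted by RNA-seq in natural killer (NK) cells that carry the receptor Ly49H. They were chosen by name, as every protein-coding gene of the deposited table whose mouse symbol begins with Uqcr, Cox4i, Cox5, Cox6a, Cox6c, Cox7, Cox8 or Atp5, together with Cox6b1, Cyc1 and Cycs. This gave 44 of 24421 genes, of which 9 belong to complex III, 17 to complex IV and 17 to ATP synthase, and 1 is the mobile carrier cytochrome c. In all, 39 of the 44 had enough counts to be tested. The other 5, all isoforms of complex IV subunits (Cox4i2, Cox7a1, Cox7b2, Cox8b and Cox8c), are described separately.

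The 4 groups, named by the titles, were LDHA-deficient cells at D2 (KO D2, n = 3), wild-type cells at D2 (WT D2, n = 3), LDHA-deficient cells at D0 (KO D0, n = 3) and wild-type cells at D0 (WT D0, n = 2). All came from spleens of mixed bone marrow chimeras on the C57BL/6 strain, in which wild-type cells carried CD45.1 and LDHA-deficient cells CD45.2, and for all the labels give infection with mouse cytomegalovirus (MCMV) as treatment. Ly49H is the activating NK receptor that recognises an MCMV protein, and LDHA is the A chain of the enzyme that turns pyruvate into lactate. Ages and the promoter behind any Cre are not given in the sources used here. The labels give day 2 after infection for all 11 libraries, so the names D0 and D2 rest on the titles, and whether the D0 mice were infected is unknown here. For the WT libraries the genotype field lists both genotypes, and the title decided their group. Each library is labelled as an individual mouse, but a chimera can give cells of both genotypes.

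Complex III passes electrons from ubiquinol to cytochrome c, complex IV passes them from cytochrome c to oxygen, and both pump protons out of the mitochondrial matrix. ATP synthase lets the protons flow back and uses them to make ATP, so that the 3 machines form the end of oxidative phosphorylation. Most of their subunits are encoded in the nucleus, while the catalytic core of complex IV, cytochrome b of complex III and part of the proton channel are encoded in mitochondrial DNA. The mitochondrially encoded subunits were not analysed here.

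Total counts ran from 19452460 to 27992092 per library. The members took between 0.583% and 1.03% of them. Along the first principal component lay 71.2% of the variance. Ldha, the targeted gene, stood at 115, 113 and 101 CPM (counts scaled to library size, with TMM factors) in KO D2 cells against 3101, 2753 and 2856 CPM in WT D2 cells. It stood at 91.1, 103 and 104 CPM in KO D0 cells against 563 and 656 CPM in WT D0 cells. The libraries thus matched their titles in genotype. The NK cell genes Ncr1, Klrb1c and Klra8, the last of which encodes Ly49H, were present in every group, with group means between 436 and 1584 CPM. Of the list of 9 NK cell genes, 3 rose and 5 fell in KO cells at D2 against D0 (median log2 change -0.68). In WT cells 2 rose and 5 fell (median -0.71). Of all genes tested, 27% rose and 34.5% fell in KO cells, and 27.5% rose and 26% fell in WT cells. In KO D2 cells 3 of the 9 were lower and 0 higher than in WT D2 cells (median 0.19), against 14.5% and 1.61% of all genes. In KO D0 cells 1 of the 9 was lower and 0 higher than in WT D0 cells (median -0.06), against 0.0583% and 0.0948% of all genes. The part of these NK cell genes in the results below was not tested. Summed markers of T cells stayed between 12.0 and 30.1 CPM and those of B cells between 4.03 and 9.15 CPM.

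At D2 the respiratory genes stood well above D0 in both genotypes. In KO cells 32 of the 39 tested members rose and 4 fell at D2 against D0, and in WT cells 37 rose and 2 fell (edgeR quasi-likelihood test, Benjamini-Hochberg adjusted over all 13711 genes tested, called at an adjusted p under 0.05). Of all genes tested, 27% rose and 34.5% fell in KO cells (61.4% in either direction), and 27.5% rose and 26% fell in WT cells (53.5% in either direction). The members' median change was 1.99-fold in KO cells and 2.15-fold in WT cells, and over all genes it was 0.870-fold in KO cells and 0.954-fold in WT cells. Summed over members, the level was 9807 ± 193 CPM in KO D2 cells and 11119 ± 567 CPM in WT D2 cells, against 5466 ± 338 CPM in KO D0 cells and 5106 ± 422 CPM in WT D0 cells (SD). In WT cells the libraries of D2 and D0 did not overlap for any tested member, and in KO cells they overlapped for 1, Atp5d. Among all genes, the D2 libraries stood wholly above D0 for 29.2% in KO cells and 33.6% in WT cells, and wholly below it for 37.8% in KO cells and 34.9% in WT cells. In bulk samples, fewer cells of a type and less RNA per cell cannot be told apart.

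**Figure D1:**
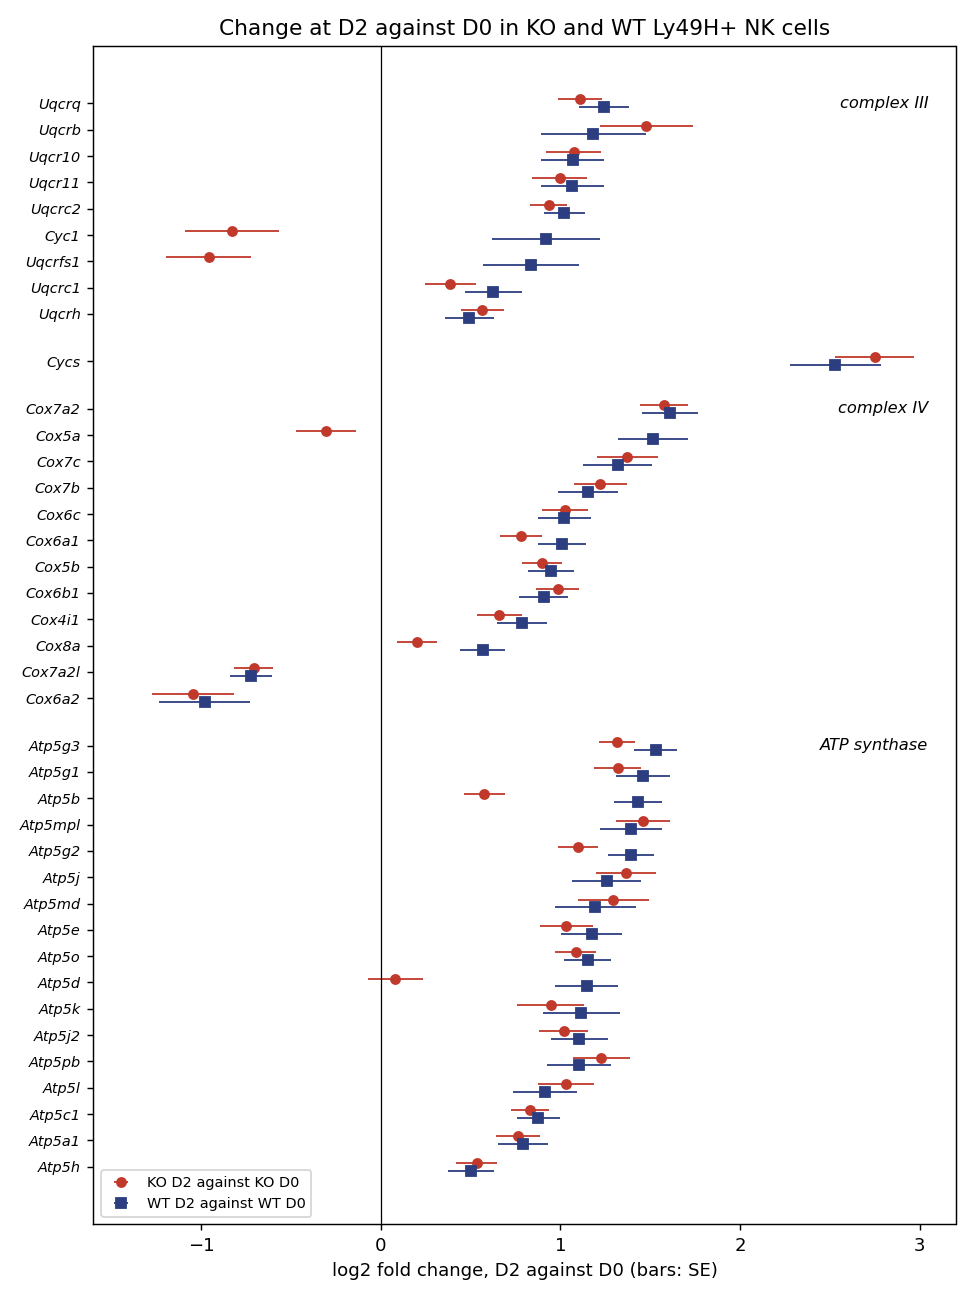
log2 fold changes at D2 against D0 with SE for the 39 tested members, ordered within each complex by the change in WT cells, for KO cells (red circles) and WT cells (blue squares). Most members sit near 1 in both genotypes, Cycs stands at 2.75 and 2.53, and Cyc1, Uqcrfs1, Cox5a, Atp5b and Atp5d separate the genotypes.

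Cytochrome c showed the largest rise of the 39 tested members in both genotypes. Cycs (chr6:50562563-50566569, GRCm38) encodes the soluble carrier between complexes III and IV, which also activates the caspase scaffold Apaf1 when it leaves mitochondria. It stood at 735, 736 and 720 CPM in KO D2 cells and at 788, 677 and 717 CPM in WT D2 cells. At D0 it stood at 151, 104 and 70.2 CPM in KO cells and at 137 and 115 CPM in WT cells. All D2 libraries lay far above all D0 libraries, and among the D0 libraries the KO ones spread around the WT ones. The log2 change was 2.75 ± 0.22 in KO cells (SE, adjusted p = 3.4e-07), a 6.73-fold rise, and 2.53 ± 0.25 in WT cells (adjusted p = 3.29e-06), a 5.78-fold rise. The change was not called different between the genotypes (0.22 ± 0.31, adjusted p = 0.824). With replicate numbers as a block within each day it was called higher in KO cells (0.56, adjusted p = 0.0134), and Cycs was called lower in KO D0 than in WT D0 cells (-0.55, adjusted p = 0.0382).

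Complex III rose by a median log2 of 0.93 over its 9 tested members in KO cells, where 7 rose and 2 fell, and by 1.02 in WT cells, where all 9 rose. Uqcrq, a small membrane subunit, stood at 114, 120 and 118 CPM in KO D2 cells against 55.1, 48.9 and 59.0 CPM in KO D0 cells. In WT cells it stood at 96.0, 107 and 121 CPM at D2 against 43.1 and 47.9 CPM at D0. The D2 libraries did not overlap those of D0 in either genotype, and the log2 change was 1.11 ± 0.12 in KO cells (adjusted p = 4.76e-06) and 1.24 ± 0.14 in WT cells (adjusted p = 7.88e-06). The 2 core proteins, which face the matrix, rose unequally. Uqcrc2 rose by 0.93 ± 0.10 in KO cells (adjusted p = 5.04e-06) and by 1.02 ± 0.12 in WT cells (adjusted p = 9.73e-06). Uqcrc1, the member of complex III with the highest count per length over the mean of the 4 groups (Uqcr10 was higher in KO D2 cells, at 245 against 230.0 CPM per kilobase), rose by 0.39 ± 0.14 in KO cells (adjusted p = 0.028) and by 0.63 ± 0.16 in WT cells (adjusted p = 0.0047). The 5 small subunits rose in both genotypes, with log2 changes between 0.56 and 1.48 in KO cells and between 0.49 and 1.24 in WT cells. With a per-library offset for the GC content of transcripts, Uqcrh was not called in KO cells (0.04, adjusted p = 0.85) or in WT cells (0.43, adjusted p = 0.083), and Uqcrc1 was not called in KO cells (0.23, adjusted p = 0.127). Both members that carry a redox centre, Cyc1 and Uqcrfs1, rose in WT cells and fell in KO cells, as described with the comparison of genotypes. With the GC offset their rises in WT cells kept their calls, and in KO cells neither was called, at -0.24 for Cyc1 (adjusted p = 0.329) and -0.27 for Uqcrfs1 (adjusted p = 0.183).

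Some of the smaller rises in complex III and ATP synthase rested on single libraries. The rise of Uqcrc1 in KO cells lost its call without any one of KO D0 replicate 1 (adjusted p = 0.169), KO D0 replicate 2 (0.127), KO D2 replicate 1 (0.0678), KO D2 replicate 2 (0.0944), KO D2 replicate 3 (0.163), WT D2 replicate 1 (0.0629) or WT D2 replicate 3 (0.0703). In WT cells, leaving out WT D0 replicate 2 gave an adjusted p of 0.126 for Uqcrc1, 0.0785 for Uqcrh and 0.0842 for Atp5h. Uqcrh, the hinge subunit that docks cytochrome c, also lost its call in WT cells without WT D0 replicate 3 (adjusted p = 0.0546) or WT D2 replicate 3 (0.0666).

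Complex IV split into 2 patterns. Of its 12 tested members, 8 rose and 2 fell in KO cells and 10 rose and 2 fell in WT cells, with median log2 changes of 0.84 in KO cells and 0.98 in WT cells. The 2 that fell were the same in both genotypes, Cox7a2l and Cox6a2. The member with the largest rise in both genotypes was Cox7a2, the widely expressed isoform of subunit 7A. It stood at 203, 201 and 188 CPM in KO D2 cells against 80.6, 56.8 and 61.0 CPM in KO D0 cells. In WT cells it stood at 175, 165 and 185 CPM at D2 against 60.0 and 54.6 CPM at D0. Every D2 library was more than 2-fold above every D0 library of its genotype, and the log2 change was 1.58 ± 0.13 in KO cells (adjusted p = 5.86e-07) and 1.61 ± 0.15 in WT cells (adjusted p = 2.3e-06).

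Cox7a2l moved the other way. Its product resembles subunit 7A and acts in joining complex III to complex IV in supercomplexes, and the C57BL/6 strain is known to carry a shortened allele of it. It stood at 46.3, 49.4 and 50.8 CPM in KO D2 cells against 82.7, 74.0 and 82.6 CPM in KO D0 cells. In WT cells it stood at 42.3, 41.3 and 46.4 CPM at D2 against 72.5 and 70.5 CPM at D0. The groups of the 2 days did not overlap in either genotype, and the log2 change of Cox7a2l was -0.71 ± 0.11 in KO cells (adjusted p = 8.97e-05) and -0.72 ± 0.12 in WT cells (adjusted p = 0.000212). As a share of the counts of Cox7a1, Cox7a2 and Cox7a2l together, Cox7a2 took 80.1% ± 1.36 in KO D2 cells and 80.1% ± 0.343 in WT D2 cells, against 45.0% ± 3.72 in KO D0 cells and 44.4% ± 1.12 in WT D0 cells (SD). Divided by transcript length, its share was 87.0% in KO D2 cells and 87.0% in WT D2 cells, against 57.6% in KO D0 cells and 57.1% in WT D0 cells. The balance of the pair was thus turned at D2 by count, and by length Cox7a2 already led at D0.

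Cox6a2, the isoform of subunit 6A known from heart and skeletal muscle, also fell. It stood at 4.20, 4.31 and 4.52 CPM in KO D2 cells against 11.05, 7.33 and 8.55 CPM in KO D0 cells. In WT cells it stood at 2.99, 3.62 and 5.10 CPM at D2 against 7.92 and 7.53 CPM at D0. No D2 library reached a D0 library of its genotype, and the log2 change of Cox6a2 was -1.05 ± 0.23 in KO cells (adjusted p = 0.00157) and -0.98 ± 0.25 in WT cells (adjusted p = 0.00524). Its common counterpart Cox6a1 rose by 0.78 ± 0.12 in KO cells (adjusted p = 8.21e-05) and by 1.01 ± 0.14 in WT cells (adjusted p = 3.81e-05). Cox6a2 took 1.39% ± 0.0499 of the pair's counts in KO D2 cells and 1.24% ± 0.185 in WT D2 cells, against 4.75% ± 0.801 in KO D0 cells and 4.84% ± 0.400 in WT D0 cells.

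**Figure D2:**
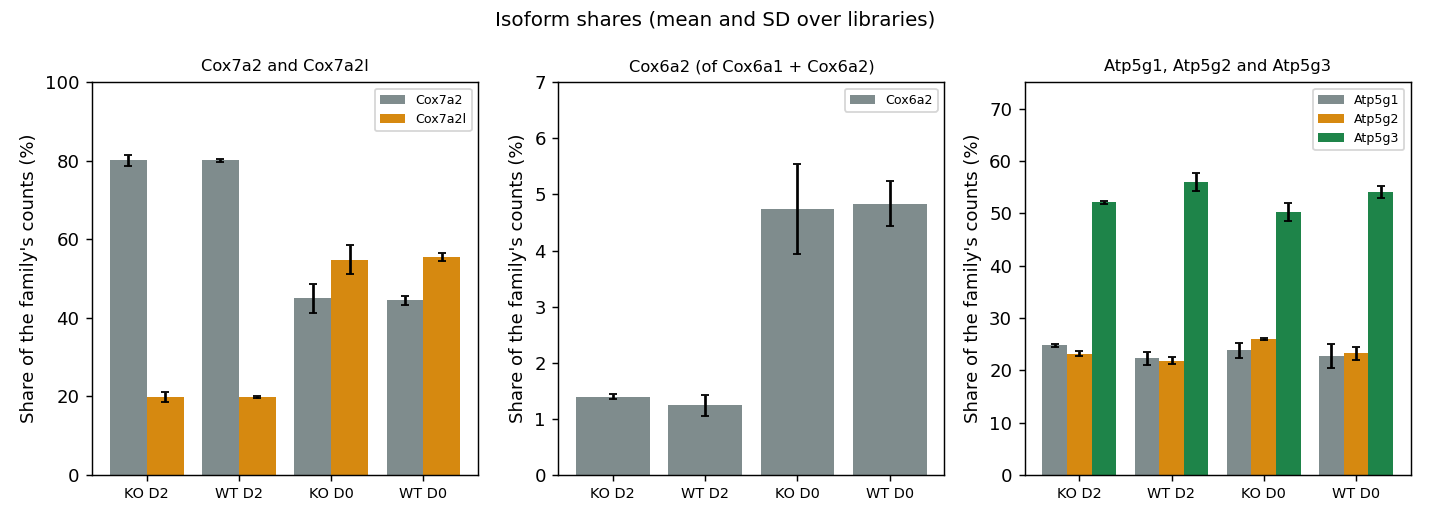
Share of each isoform in the counts of its subunit (percent, mean with SD over libraries), for KO D2, WT D2, KO D0 and WT D0. Cox7a2 stands near 80% at D2 and near 45% at D0 in both genotypes, Cox6a2 falls to about 1.3% of its pair at D2, and Atp5g3 takes between 50.3% and 56.0% of subunit c in the 4 groups.

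The remaining isoforms of complex IV were at or near the detection floor. A count of 3, used as the floor, corresponded to between 0.107 and 0.154 CPM. Cox4i2, the isoform of subunit 4 known from lung, had 49 counts over all 11 libraries, Cox7a1, known from muscle, had 38, and Cox8b, also a muscle isoform, had 8. Cox7b2 and Cox8c, known from testis, had 0 counts in every library. Their common counterparts were all well above the floor. Cox4i1 had the highest count per length in complex IV, and rose by 0.66 ± 0.12 in KO cells (adjusted p = 0.000456) and by 0.79 ± 0.14 in WT cells (adjusted p = 0.000404). Cox7b rose 2.33-fold in KO cells (adjusted p = 1.23e-05) and 2.22-fold in WT cells (adjusted p = 8.09e-05). Cox8a rose by 0.57 ± 0.13 in WT cells (adjusted p = 0.00211) and was not called in KO cells, where its log2 change was 0.20 ± 0.11 (adjusted p = 0.14). With DESeq2 scaling Cox8a was called in KO cells too (0.31, adjusted p = 0.038), and its change did not differ detectably between the genotypes (-0.37 ± 0.17, adjusted p = 0.276).

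ATP synthase rose in both genotypes. In KO cells 16 of its 17 tested members rose, with a median log2 change of 1.03, and in WT cells all 17 rose, with a median of 1.15. The 3 genes for subunit c, whose identical mature proteins form the rotating ring of the membrane part, had the smallest p of the complex in KO cells. Atp5g3 stood at 464, 463 and 471 CPM in KO D2 cells against 203, 172 and 187 CPM in KO D0 cells. In WT cells it stood at 507, 464 and 523 CPM at D2 against 177 and 168 CPM at D0. All D2 libraries lay more than 2-fold above the D0 libraries of their genotype, and the log2 change was 1.31 ± 0.10 in KO cells (adjusted p = 2.79e-07) and 1.53 ± 0.12 in WT cells (adjusted p = 3.76e-07). Atp5g1 rose by 1.32 ± 0.13 in KO cells (adjusted p = 2.04e-06) and by 1.46 ± 0.15 in WT cells (adjusted p = 3.98e-06), and Atp5g2 by 1.10 ± 0.11 in KO cells (adjusted p = 2.58e-06) and by 1.39 ± 0.13 in WT cells (adjusted p = 1.67e-06). Atp5g3 took 52.1% ± 0.323 of the 3 genes' counts in KO D2 cells and 56.0% ± 1.76 in WT D2 cells, against 50.3% ± 1.67 in KO D0 cells and 54.1% ± 1.12 in WT D0 cells.

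The other parts of ATP synthase also rose. The 4 genes of the peripheral stalk, which holds the catalytic head still, had log2 changes between 0.53 and 1.37 in KO cells and between 0.50 and 1.26 in WT cells, and all 4 rose in both. With the GC offset Atp5h, one of the 4, was not called in KO cells (0.09, adjusted p = 0.634) or in WT cells (0.40, adjusted p = 0.0558). The 5 small subunits of the membrane part had log2 changes between 0.95 and 1.46 in KO cells and between 0.91 and 1.40 in WT cells, and all 5 rose in both. Of the 5 genes of the catalytic head F1, 4 rose in KO cells and all 5 in WT cells. Atp5b, the catalytic beta subunit, had the highest count per length of all 44 genes and rose by 0.58 ± 0.11 in KO cells (adjusted p = 0.000745) and by 1.43 ± 0.13 in WT cells (adjusted p = 1.91e-06). Atp5d, the delta subunit of the central stalk, rose by 1.15 ± 0.18 in WT cells (adjusted p = 0.000117) and was not called in KO cells, where its log2 change was 0.08 ± 0.15 (adjusted p = 0.663). With the GC offset Atp5d was called higher in KO cells too (0.40, adjusted p = 0.0168).

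Markers of other cells differed between the days in these libraries. Summed myeloid markers ran from 275 to 341 CPM in KO D2 cells and from 213 to 230 CPM in WT D2 cells, against 651 to 788 CPM in KO D0 cells and 720 to 730 CPM in WT D0 cells. All 5 markers on that list were tested, and 4 of them fell in KO cells and 3 in WT cells, against 34.5% and 26% of all genes. Most of the sum was Itgax, which NK cells also express. Lyz2 averaged 4.54 CPM in KO D2 cells and 4.90 CPM in WT D2 cells, against 19.6 CPM in KO D0 cells and 31.1 CPM in WT D0 cells, and the group means of Cd14 were under 1 CPM in all 4 groups. Summed erythroid markers ran from 63.0 to 204 CPM in KO D2 cells and from 37.7 to 312 CPM in WT D2 cells, against 103 to 907 CPM in KO D0 cells and 191 to 809 CPM in WT D0 cells. Their part in the rise of the respiratory genes was not tested.

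At D2 the genotypes differed in 5 of the 39 members, all lower in KO cells. They were Cyc1 and Uqcrfs1 of complex III, Cox5a of complex IV, and Atp5b and Atp5d of ATP synthase. Of all genes tested, 1.61% were higher and 14.5% lower in KO D2 cells than in WT D2 cells. The count of lower members thus lay near the background. Of the other 34 members none was called, with log2 differences between -0.15 and 0.27 and adjusted p between 0.174 and 0.994. DESeq2 called 1 of them, Uqcrh, higher in KO D2 cells (0.36, adjusted p = 0.0345). The KO D2 libraries lay wholly above the WT D2 libraries for 7 members and wholly below them for 5, against 12.4% and 21.3% of all genes. The median over all 39 members was 0.12, against 0.01 over all genes, and 29 of the 39 were on the positive side. With an offset for GC content the members' median turned to -0.12, and that over all genes was also -0.12. Summed myeloid markers, given above, were also higher in KO D2 than in WT D2 libraries, without overlap. The sum was carried by Itgax, the 1 of the 5 that was called (log2 difference 0.49, adjusted p = 0.008), and the median over the 5 was -0.37, with the other 4 negative. Their part in these differences was not tested.

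Cyc1 (chr15:76343513-76346260, GRCm38) encodes cytochrome c1, the haem subunit of complex III that hands electrons to cytochrome c. It stood at 46.0, 55.8 and 59.2 CPM in KO D2 cells against 138, 232 and 231 CPM in WT D2 cells. Its KO D2 libraries were all under every WT D2 library, and WT D2 replicate 1 was low among the WT ones. The log2 difference was -1.90 ± 0.27 (adjusted p = 0.000467).

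Uqcrfs1 (chr13:30540312-30545316) encodes the Rieske iron-sulphur protein, which takes electrons from ubiquinol. It stood at 39.3, 42.1 and 44.6 CPM in KO D2 cells against 91.4, 180 and 172 CPM in WT D2 cells. The groups did not overlap, and WT D2 replicate 1 was again the low one. The log2 difference was -1.81 ± 0.24 (adjusted p = 0.000329). Cyc1 and Uqcrfs1 are the only nuclear-encoded complex III subunits that carry a redox centre, and the other 7 tested members of complex III were not called.

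Cox5a (chr9:57517328-57532427) encodes subunit 5A, which sits on the matrix side of complex IV. It stood at 59.9, 65.7 and 71.8 CPM in KO D2 cells against 175, 284 and 286 CPM in WT D2 cells. The groups did not overlap, WT D2 replicate 1 was low once more, and the log2 difference was -1.92 ± 0.17 (adjusted p = 5.91e-05). Its neighbour in the complex by name, Cox5b, stood at 186, 182 and 192 CPM in KO D2 cells against 163, 156 and 193 CPM in WT D2 cells. The Cox5b libraries overlapped, with a log2 difference of 0.13 ± 0.11 (adjusted p = 0.55).

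The 2 members of ATP synthase, Atp5b (chr10:128083307-128090388) and Atp5d (chr10:80138698-80145828), had smaller differences. Atp5b stood at 1196, 1326 and 1381 CPM in KO D2 cells against 2297, 2267 and 2360 CPM in WT D2 cells, with tight WT replicates and no overlap. Its log2 difference was -0.83 ± 0.12 (adjusted p = 0.000421). Atp5d stood at 183, 229 and 237 CPM in KO D2 cells against 354, 419 and 441 CPM in WT D2 cells, again with no overlap, and its log2 difference was -0.90 ± 0.15 (adjusted p = 0.00124). The 3 other genes of F1 were not called. Among them Atp5a1, the alpha subunit that forms the hexamer with beta, stood at 1184, 1192 and 1296 CPM in KO D2 cells against 1222, 1125 and 1205 CPM in WT D2 cells, which overlapped (0.05 ± 0.12, adjusted p = 0.882).

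The 5 differences at D2 held with each library left out in turn, with the highest adjusted p among those fits at 0.0106, for Atp5d. WT D2 replicate 1 stood lower than the other WT D2 libraries for Cyc1, Uqcrfs1, Cox5a and Atp5d. Without it the log2 differences were -2.13 for Cyc1, -2.09 for Uqcrfs1, -2.14 for Cox5a and -1.01 for Atp5d.

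**Figure D3:**
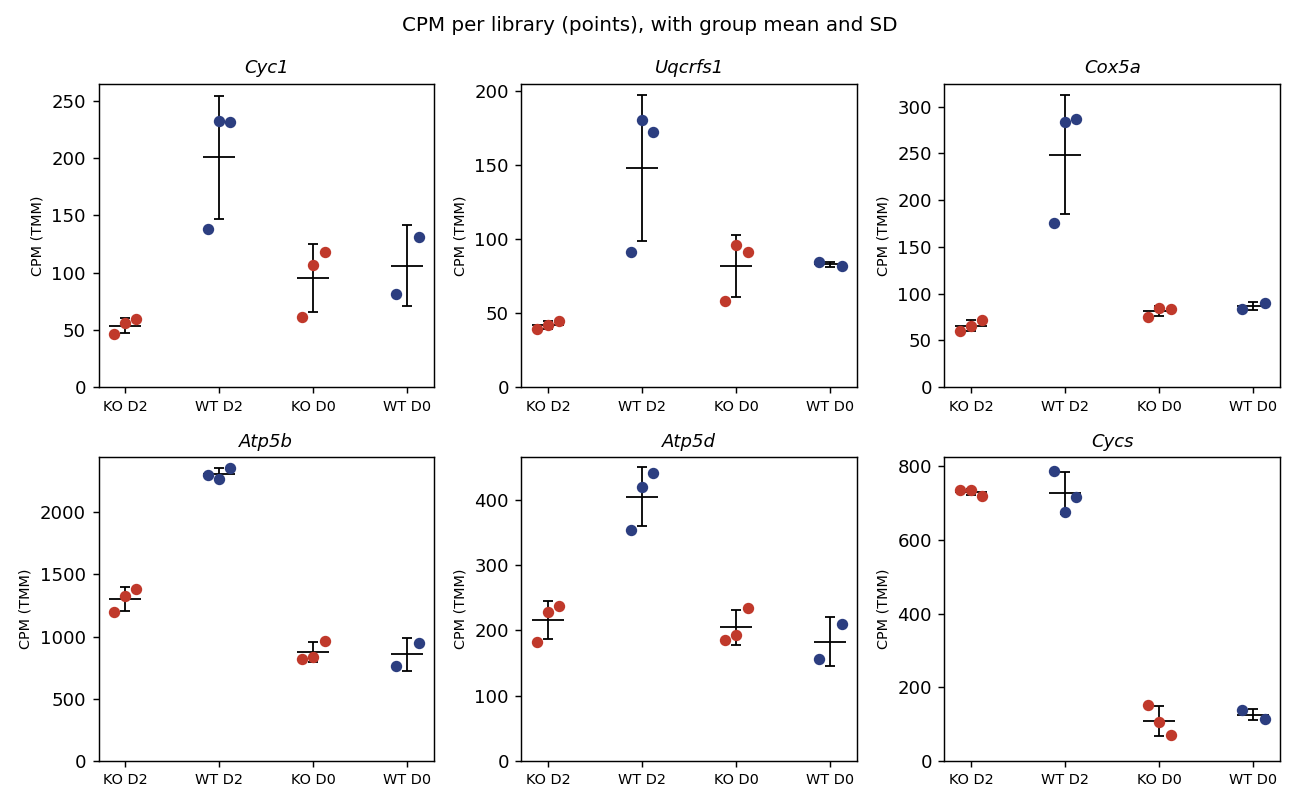
CPM in each library (points), with group mean and SD (black), for the 5 members lower in KO D2 than in WT D2 cells and for Cycs, in the groups KO D2, WT D2, KO D0 and WT D0. For Cyc1, Cox5a, Atp5b and Atp5d the WT D2 libraries lie above the other 3 groups, for Uqcrfs1 WT D2 replicate 1 falls within the D0 range, and Cycs is high in both D2 groups.

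The same 5 members also differed in their change at D2 against D0, which was lower in KO cells. On the log2 scale the difference of the changes was -1.75 ± 0.40 for Cyc1 (adjusted p = 0.0277), -1.79 ± 0.36 for Uqcrfs1 (adjusted p = 0.019), -1.82 ± 0.25 for Cox5a (adjusted p = 0.00774), -0.85 ± 0.17 for Atp5b (adjusted p = 0.019) and -1.07 ± 0.23 for Atp5d (adjusted p = 0.0227). None of the 39 was called with a higher change in KO cells, and 15 of the 39 values were positive. With replicate numbers as a block within each day, 2 were called higher, Uqcrb and Cycs. Of all genes tested, 0.124% had a higher and 5.72% a lower change in KO cells (5.84% in either direction). For Cyc1 the change itself was -0.83 ± 0.26 in KO cells (adjusted p = 0.0156) and 0.92 ± 0.30 in WT cells (adjusted p = 0.0201). For Uqcrfs1 it was -0.96 ± 0.24 in KO cells (adjusted p = 0.00351) and 0.84 ± 0.27 in WT cells (adjusted p = 0.0184). Cyc1 stood at 61.3, 106 and 118 CPM in KO D0 cells and at 81.3 and 131 CPM in WT D0 cells. Uqcrfs1 stood at 57.9, 96.0 and 91.1 CPM in KO D0 cells and at 84.1 and 81.6 CPM in WT D0 cells. KO D0 replicate 1 was the lowest KO D0 library for both. The GC offset ended the calls in KO cells for both, as given above. In the difference of the changes it left Cyc1 (-1.25, adjusted p = 0.05) and Atp5d (-0.78, adjusted p = 0.0511) without a call. Cox5a rose by 1.52 ± 0.19 in WT cells (adjusted p = 2.69e-05) and was not called in KO cells (-0.31 ± 0.17, adjusted p = 0.131), although its KO D2 libraries lay under all KO D0 libraries. At D0 it stood at 75.4, 84.8 and 83.7 CPM in KO cells and at 84.0 and 89.7 CPM in WT cells.

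The difference of the changes depended on single libraries, unlike the difference at D2. Without WT D0 replicate 2 none of the 5 was called, with adjusted p of 0.163 for Cyc1, 0.114 for Uqcrfs1, 0.0632 for Cox5a, 0.127 for Atp5b and 0.142 for Atp5d, and in that fit 4 genes of the whole table were called. The log2 values there were -1.43 for Cyc1, -1.81 for Uqcrfs1, -1.76 for Cox5a, -0.69 for Atp5b and -0.86 for Atp5d. Without KO D0 replicate 2, KO D2 replicate 1, KO D2 replicate 2 or WT D2 replicate 3, Cox5a alone was called. Without WT D2 replicate 2, 3 of the 5 were called, with Cyc1 at an adjusted p of 0.0655 and Atp5d at 0.0555. Without KO D0 replicate 3 or KO D2 replicate 3 Cyc1 lost its call (adjusted p = 0.053 and 0.0594), and without WT D0 replicate 3 Uqcrfs1 did (0.068). The WT rises of the 2 complex III members were fragile too. Cyc1 lost its call in WT cells without WT D0 replicate 2 (0.56, adjusted p = 0.244), WT D2 replicate 2 (0.80, 0.0563) or WT D2 replicate 3 (0.74, 0.0871). Uqcrfs1 lost it without WT D0 replicate 2 (adjusted p = 0.1), WT D0 replicate 3 (0.11), WT D2 replicate 2 (0.0621) or WT D2 replicate 3 (0.0902). The fall of Cyc1 in KO cells had an adjusted p of 0.0507 without KO D2 replicate 1, and Cox5a was called lower in KO cells without WT D2 replicate 1 (-0.36, adjusted p = 0.014).

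At D0 no member was called between the genotypes. In edgeR 0 of 39 members were called, against 0.0948% of all genes higher and 0.0583% lower in KO D0 cells, and DESeq2 also called 0. The smallest p among the 39 was that of Atp5g2, which was not called, with a log2 difference of 0.39 ± 0.12 (adjusted p = 0.917). It stood at 102, 87.0 and 101 CPM in KO D0 cells against 77.5 and 70.3 CPM in WT D0 cells, without overlap. The members' median was 0.14, against 0.02 over all genes. The KO D0 libraries lay wholly above the WT D0 libraries for 8 members and wholly below them for 0, against 10.6% and 5.91% of all genes. The 5 members that differed at D2 had log2 differences between -0.15 and 0.16 at D0. With replicate numbers as a block within each day, which leaves KO D0 replicate 1 unpaired, Uqcrb (-0.67, adjusted p = 0.0464) and Cycs (-0.55, adjusted p = 0.0382) were called lower in KO D0 cells. In that fit they also had higher changes in KO cells (0.78, adjusted p = 0.0108, for Uqcrb and 0.56, adjusted p = 0.0134, for Cycs). Uqcrb stood at 65.7, 39.2 and 23.8 CPM in KO D0 cells against 51.3 and 46.7 CPM in WT D0 cells, so that the KO libraries spread on both sides of the WT ones.

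The 5 members lower in KO D2 cells shared GC-rich transcripts. Peak GC, the share of G and C in the richest window of 100 bases, ran from 75% to 81% in them. Of the members with a peak of at least 75%, 5 of 11 were lower in KO D2 cells, and of those under 75%, 0 of 28 were. Among the other genes tested, 33.2% of those with a peak of at least 75% were lower in KO D2 cells, and 2.54% of those under it. Across the 39 members Spearman's rho between peak GC and the log2 difference was -0.74, and across 12819 genes it was -0.45, where genes share the libraries and are not independent. At D0 the same rho was -0.07 over the members. The 6 GC-rich members that were not called were Cox4i1, Cox5b, Cox6a1, Cox8a, Atp5g2 and Atp5j, with peaks between 75% and 80% and log2 differences between -0.10 and 0.13. Transcripts ran from 645 to 1916 bases in the 5 lower members and from 550 to 865 bases in these 6. With a per-library offset fitted to peak GC, all 5 were still called lower at D2, with smaller log2 differences of -1.39 for Cyc1, -1.25 for Uqcrfs1, -1.40 for Cox5a, -0.78 for Atp5b and -0.61 for Atp5d. The part of GC content in these differences was not tested beyond this.

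**Figure D4:**
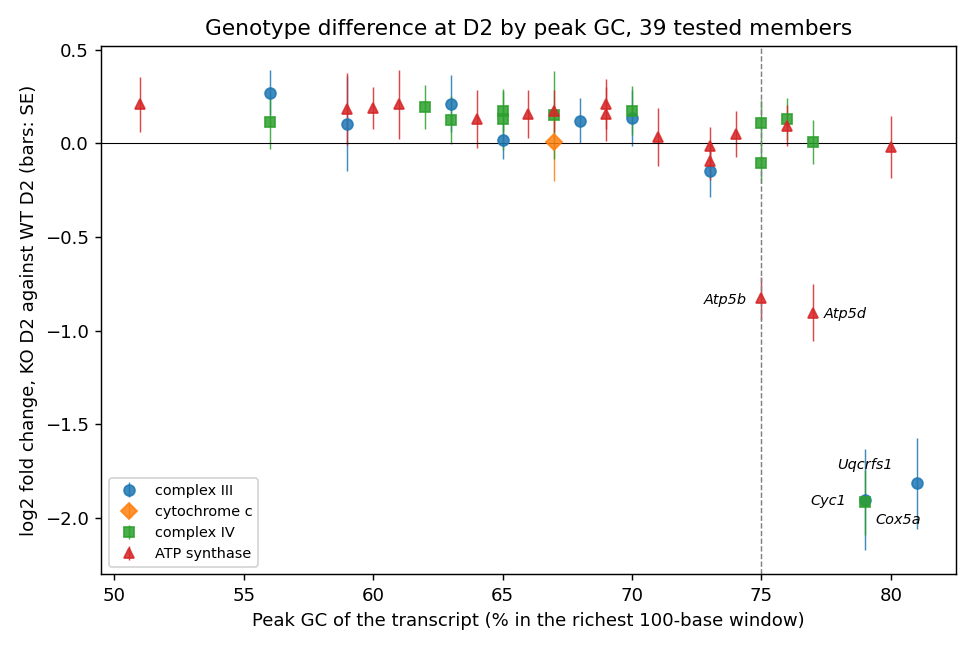
Peak GC of the transcript (percent in the richest 100-base window) against the log2 fold change of KO D2 over WT D2 cells with SE, for the 39 tested members by complex, with a dashed line at 75%. The 5 members lower in KO D2 cells all lie at or right of the line, among 6 others near 0, and every member left of it lies between -0.15 and 0.27.

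In 4 of the 5 lower members the GC-rich window lay wholly in coding sequence of exon 1, and in Cox5a 88 of its 100 bases were coding. Among the 6 that were not called, the window was wholly coding in 3 and outside the coding sequence in 3. The richest coding windows of 3 lower members and of 2 that were not called are shown to set them side by side, read from GENCODE M21 transcripts (GRCm38), 5′ to 3′ on the coding strand, with runs of 8 or more G or C bases in capitals.
Uqcrfs1 exon 1, chr13:30545137-30545236, minus strand: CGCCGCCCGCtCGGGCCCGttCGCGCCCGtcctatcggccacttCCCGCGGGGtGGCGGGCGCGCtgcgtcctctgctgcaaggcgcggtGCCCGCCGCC
Cyc1 exon 1, chr15:76343566-76343665, plus strand: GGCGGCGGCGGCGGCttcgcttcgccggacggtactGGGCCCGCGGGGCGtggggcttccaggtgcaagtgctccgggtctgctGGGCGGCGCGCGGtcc
Atp5d exon 1, chr10:80142471-80142570, plus strand: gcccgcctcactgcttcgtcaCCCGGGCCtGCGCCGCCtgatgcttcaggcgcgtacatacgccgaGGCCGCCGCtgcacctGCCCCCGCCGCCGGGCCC
Cox6a1 exon 1, chr5:115348846-115348945, minus strand: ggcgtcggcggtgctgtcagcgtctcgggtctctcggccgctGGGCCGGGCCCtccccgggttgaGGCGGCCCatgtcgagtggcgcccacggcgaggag
Cox8a exon 1, chr19:7217405-7217504, minus strand: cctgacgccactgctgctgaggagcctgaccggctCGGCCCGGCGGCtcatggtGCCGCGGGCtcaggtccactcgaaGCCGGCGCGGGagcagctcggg
Uqcrfs1 had 56 bases in such runs at 81% GC, Cyc1 42 at 79% and Atp5d 43 at 77%. Cox6a1 had 19 at 77% and Cox8a 32 at 75%, while Atp5b, lower in KO D2 cells, had 8 at 75%, so that the runs alone did not part the lower members from the others.

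Promoters of the members were read for motifs of factors known to drive respiratory genes. RefSeq promoter sequences (GRCm38.p6, the 250 bases before a listed start) were matched for 33 of the 44 members. Of these 33, 30 were tested. For some members, such as Cox5a and Cox7a2, the listed start lies inside the gene as mapped. The bases before the outer start of those genes were not read. The NRF1 motif (GCGC, any base, TGCGC) was found in 5 (15.15%), against 4.233% of 27025 gene promoters. Among tested members it was in 16.67%, against 8.971% of tested genes. The ETS motif CCGGAAG, bound by GABP, was found in 8 (24.24%), against 7.826% of all. Among tested members it was in 26.67%, against 15.21% of tested genes. The CRE motif TGACGTCA, bound by CREB, was in 2 (6.061%), Cycs and Uqcrfs1, against 1.769% of all. Among tested members it was in 6.667%, against 3.033% of tested genes. The E-box CACGTG was in 4 (12.12%), against 6.86% of all. Among tested members it was in 13.33%, against 9.495% of tested genes. The YY1 motif AAGATGGCG was in 1 (3.03%), against 0.7105% of all. Among tested members it was in 3.333%, against 1.369% of tested genes. Both strands were searched, and no match says only that these letters are not in the window.

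The promoters of Cycs and Uqcrfs1 are shown because they share the CRE letters while only Uqcrfs1 was called between the genotypes at D2. That of Cox6a1 holds 2 NRF1 matches and 1 ETS match. Those of Cox7a2 and Cox7a2l, the pair that moved in opposite directions at D2, hold none of the 5 motifs. The Cox7a2 promoter shown lies inside the gene as mapped (chr9:79755241-79771422). Each promoter is written 5′ to 3′ on the strand of its gene, with motif matches in capitals.
Cycs promoter, chr6:50566570-50566819, minus strand: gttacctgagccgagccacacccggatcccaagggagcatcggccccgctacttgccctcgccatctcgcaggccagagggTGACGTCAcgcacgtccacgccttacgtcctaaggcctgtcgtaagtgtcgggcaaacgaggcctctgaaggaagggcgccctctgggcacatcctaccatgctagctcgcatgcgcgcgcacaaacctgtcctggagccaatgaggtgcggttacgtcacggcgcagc
Uqcrfs1 promoter, chr13:30545317-30545566, minus strand: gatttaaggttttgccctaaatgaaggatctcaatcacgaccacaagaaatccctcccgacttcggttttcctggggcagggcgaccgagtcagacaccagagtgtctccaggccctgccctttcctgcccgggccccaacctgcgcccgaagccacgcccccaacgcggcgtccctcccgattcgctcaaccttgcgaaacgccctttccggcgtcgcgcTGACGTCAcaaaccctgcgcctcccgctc
Cox6a1 promoter, chr5:115348959-115349208, minus strand: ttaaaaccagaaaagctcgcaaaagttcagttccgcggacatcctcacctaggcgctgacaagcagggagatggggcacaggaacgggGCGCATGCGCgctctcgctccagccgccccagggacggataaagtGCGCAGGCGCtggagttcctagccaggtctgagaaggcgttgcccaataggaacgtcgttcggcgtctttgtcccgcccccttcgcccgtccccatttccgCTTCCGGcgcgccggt
Cox7a2 promoter, chr9:79759854-79760103, minus strand: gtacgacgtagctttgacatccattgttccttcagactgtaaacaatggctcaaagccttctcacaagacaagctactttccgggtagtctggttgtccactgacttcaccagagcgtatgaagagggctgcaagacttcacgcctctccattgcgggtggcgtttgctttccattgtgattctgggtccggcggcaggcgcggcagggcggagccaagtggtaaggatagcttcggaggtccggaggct
Cox7a2l promoter, chr17:83514334-83514583, minus strand: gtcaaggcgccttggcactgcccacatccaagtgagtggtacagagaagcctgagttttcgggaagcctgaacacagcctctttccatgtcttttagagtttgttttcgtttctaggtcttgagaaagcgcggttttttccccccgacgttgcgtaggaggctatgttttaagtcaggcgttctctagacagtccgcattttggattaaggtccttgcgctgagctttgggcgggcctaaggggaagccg
In Cycs the CRE match starts 169 bases before the gene start and in Uqcrfs1 29 bases before it. In Cox6a1 the NRF1 matches start at 162 and 117 bases and the ETS match at 16 bases before it. Motif content is a description of these letters, and binding was not measured.

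Assembly factors, which build the complexes but are not part of them, moved in both directions. Of 22 tested factors of complex IV, 9 rose and 3 fell in KO cells at D2 against D0, and 11 rose and 2 fell in WT cells, against the shares of all genes given above (27% and 34.5% in KO cells, 27.5% and 26% in WT cells). Sco1, which delivers copper to complex IV, rose by 2.55 ± 0.16 in KO cells (adjusted p = 4.97e-08) and by 3.10 ± 0.19 in WT cells (adjusted p = 6.39e-08). Cox17, the copper chaperone upstream of it, rose by 1.72 ± 0.15 in KO cells (adjusted p = 7.62e-07) and by 1.55 ± 0.17 in WT cells (adjusted p = 7.94e-06). Between the genotypes at D2, 4 of the 22 were lower in KO cells and 0 higher, near the 14.5% and 1.61% of all genes. They were Cox11, which also handles copper (-2.35 ± 0.35, adjusted p = 0.000638), Cox18, which inserts a subunit into the membrane (-1.79 ± 0.26, adjusted p = 0.000499), Lrpprc, which stabilises mitochondrial mRNA (-1.36 ± 0.27, adjusted p = 0.00321), and Sco1 (-0.70 ± 0.15, adjusted p = 0.00489). The median over the 22 was 0.07.

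For ATP synthase, 2 of 4 tested assembly factors were lower in KO D2 than in WT D2 cells and 0 higher (14.5% and 1.61% of all genes), and for complex III 0 of 6 were called. Atpaf1, a chaperone of the beta subunit, differed by -1.68 ± 0.19 (adjusted p = 0.000147) and Tmem70, which helps to form the ring of subunit c, by -1.94 ± 0.22 (adjusted p = 0.000149). The medians were -0.79 for ATP synthase and 0.15 for complex III. In KO cells Atpaf1 and Tmem70 fell at D2 against D0 and Atpaf2 rose, and in WT cells Tmem70 and Atpaf2 rose and none of the 4 fell. Of the 6 complex III factors, 4 rose and 1 fell in KO cells at D2 against D0 (27% and 34.5% of all genes). In WT cells 3 rose and 1 fell (27.5% and 26% of all genes). The one that fell was Uqcc3 in both genotypes, with -0.71 ± 0.15 in KO cells (adjusted p = 0.00133) and -0.71 ± 0.17 in WT cells (adjusted p = 0.00308). Uqcc2 had the smallest p among those that rose, with 1.21 ± 0.17 in KO cells (adjusted p = 4.98e-05) and 1.25 ± 0.20 in WT cells (adjusted p = 0.000147).

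A list of genes tied to supercomplexes, cytochrome c and ATP synthase was read beside the members. It includes Cox7a2l, a member given above, and overlaps the list of complex IV assembly factors. Of 9 tested, 4 rose and 4 fell in KO cells at D2 against D0 (27% and 34.5% of all genes). In WT cells 5 rose and 3 fell (27.5% and 26% of all genes). Slc25a5, the ADP/ATP carrier that exchanges the product of ATP synthase across the inner membrane, rose by 1.99 ± 0.11 in KO cells (adjusted p = 2.78e-08) and by 2.22 ± 0.13 in WT cells (adjusted p = 5.94e-08). Casp9, the caspase that cytochrome c and Apaf1 activate, fell, with -1.32 ± 0.14 in KO cells (adjusted p = 5.16e-06) and -1.63 ± 0.16 in WT cells (adjusted p = 2.38e-06). At D2 3 of the 9 were lower in KO than in WT cells and 0 higher (14.5% and 1.61% of all genes), namely Slc25a3, the phosphate carrier that feeds ATP synthase (-0.98 ± 0.10, adjusted p = 8.38e-05), Hccs, which attaches haem to cytochrome c (-1.59 ± 0.25, adjusted p = 0.000846), and Apaf1 (-0.45 ± 0.13, adjusted p = 0.0361). Cycs itself differed by 0.01 ± 0.20 there (adjusted p = 0.994).

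Regulators of mitochondrial gene expression did not move as one. Of 15 tested, 4 rose and 6 fell in KO cells at D2 against D0 (27% and 34.5% of all genes), and 5 rose and 4 fell in WT cells (27.5% and 26% of all genes), so the counts lay near the background. Tfam, which packages mitochondrial DNA, rose by 0.89 ± 0.13 in KO cells (adjusted p = 6.43e-05) and by 0.90 ± 0.15 in WT cells (adjusted p = 0.000221). Pprc1, a coactivator of the PGC-1 family, rose by 0.96 ± 0.19 in KO cells (adjusted p = 0.000622) and by 1.71 ± 0.22 in WT cells (adjusted p = 2.52e-05). Its relative Ppargc1a fell, with -1.89 ± 0.33 in KO cells (adjusted p = 0.000249) and -1.95 ± 0.35 in WT cells (adjusted p = 0.000462). At D2, 6 of the 15 were lower in KO than in WT cells and 0 higher (14.5% and 1.61% of all genes), with the smallest p for Gabpa, the DNA-binding subunit of GABP (-0.83 ± 0.12, adjusted p = 0.000467), Gabpb1, its partner (-0.67 ± 0.14, adjusted p = 0.00471), and Pprc1 (-0.86 ± 0.18, adjusted p = 0.00563). The median over the 15 was -0.55. Peak GC was not read for the assembly factors, partners or regulators. Its part in their differences between the genotypes was not tested.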

How the data were processed

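RNA-seq counts of 11 libraries were analysed. The authors deposited one table of raw counts, whole numbers keyed by Entrez gene, which may be rounded estimates. The build mm10 is named in the submitters' processing notes, which also list DESeq2 1.22.2, Salmon 0.13.1 (or 13.1 in another entry), Trimmomatic 0.36 and bcl2fastq 2.20.0.422. Which tool made the counts is not given in the sources used here. Such counting can split reads between a gene and its near-identical copies: 14 pseudogenes match the name pattern in RefSeq and 0 of them have counts of their own. Symbols came from a RefSeq table (GRCm38.p6), which matched 24387 of 24421 IDs.

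The quasi-likelihood model of edgeR 4.0.16 (robust, TMM, filterByExpr; R 4.3.3) was fitted as 1 model of 4 group means with 7 residual degrees of freedom, and p-values were adjusted over all 13711 genes tested. Standard errors (SE) were derived from the F statistic. CPM are TMM-scaled and SD is between libraries. P-values measure the spread between these libraries. Total counts ran from 19452460 to 27992092 per library, and intervals and floors cover counting error only. Alternatives were DESeq2 scaling (RLE), DESeq2 1.42.0, other filters, only the compared groups, replicate blocks, an offset for peak GC and leaving out each library in turn. The fits were tested on simulated data.

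Same-numbered KO and WT libraries at D2 correlated in their deviations from the group means at 0.217, 0.198 and 0.114. D2 pairs with different numbers ran from -0.193 to 0.00511. At D0, with 2 shared numbers, the values were 0.0275 and 0.410, and pairs with different numbers ran from -0.410 to 0.376. Same-numbered KO D0 and WT D2 libraries, of different days, gave 0.218, 0.152 and 0.201. Whether the numbers mark a shared mouse was not settled. The main model held no block, and blocks were run as alternatives. Transcript lengths and GC came from GENCODE M21 transcripts linked to RefSeq. Cox5b, Atp5a1 and Uqcrb were added with values in every library after these were seen, and Sco1 between genotypes likewise. Otherwise every member could be named, and those given in full were up to 3 called members per complex and direction with the smallest p, the highest count per length and the isoform pairs. Values in every library are given for the few of these the text turns on. The members, lists and tests were chosen with earlier results of these data known, and roles were grouped after the values were seen.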

Additional observations from a re-analysis of the deposited data

Results flagged for a closer look

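The change at D2 against D0 differed between the genotypes for 5 members by the test of the difference itself (edgeR quasi-likelihood test, adjusted over all genes tested). The difference of the log2 changes was -1.75 for Cyc1, -1.79 for Uqcrfs1, -1.82 for Cox5a, -0.85 for Atp5b and -1.07 for Atp5d, all lower in KO than in WT cells. For Cyc1 and Uqcrfs1 the changes themselves had opposite signs in KO and WT cells. No group held 4 or more libraries, so single libraries were not screened for outlying values. Each library was left out in turn, and the calls of these differences depended on single libraries, as given above. With the GC offset neither Cyc1 (-0.24) nor Uqcrfs1 (-0.27) was called at D2 against D0 in KO cells.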

How the results depend on the processing

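The 5 members lower in KO D2 than in WT D2 cells kept their call in every alternative run. Over single members and contrasts, 3624 of 3705 values stayed on their side of the threshold. Called values among them kept their direction, and values uncalled in both fits were counted without regard to sign. Of the rest, 59 lost a call, 18 gained one and 4 changed sign with a call. The number with a different change between genotypes ran from 0 to 5 when each library was left out, and was 3 with the GC offset (0 higher, 3 lower). With the replicate block within a day, the members called at D0 were 2 (0 higher, 2 lower), those with a different change were 7 (2 higher, 5 lower), and the block changed no call of a member between genotypes at D2. With the block across days Cox5a was called lower at D2 against D0 in KO cells (-0.31, adjusted p = 0.0414). The block with the GC offset gave 12 called at D2 (3 higher, 9 lower), 1 at D0 and 8 for the difference of changes (1 higher, 7 lower). In that fit Uqcrc2 (-0.26), Cycs (-0.27) and Atp5j (0.53) changed sign and gained a call at D2. So did Atp5mpl (-0.62) in the difference of changes. That fit has 3 residual degrees of freedom, and the cause was not tested. The shares of all genes called in the alternative fits of this section are not given here. The counts of members called in them are therefore not set against a background. The GC offset ended the calls at D2 against D0 of Cyc1 (-0.24) and Uqcrfs1 (-0.27) in KO cells and turned Cox5a to 0.26 (adjusted p = 0.0952). It also ended those of Uqcrc1 in KO cells and of Uqcrh and Atp5h in both genotypes, gave one for Atp5d (0.40) in KO cells, and turned the members' median between genotypes at D2 to -0.12. RLE scaling moved the median of all genes by 0.11 at D2 against D0 in KO cells, the 5 CPM filter by -0.14 there, and the GC offset by -0.15 there and by -0.14 between genotypes at D2. When either WT D0 library is left out, the other is assumed to vary like the remaining groups. Depth limits the 5 untested isoforms.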
